A study of Mus musculus with 2 samples.

Results

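Collagens and laminins are the main structural proteins of the extracellular matrix, and the 54 genes described here encode 44 collagen and 10 laminin chains. They were taken by symbol (Col, a number, a and a number, or Lam with a, b or c and a number) from the 19938 genes measured by probe sets with 1 gene symbol, and each gene was read by its probe set of highest mean level over both arrays. The 54 fall into 11 fibrillar collagens, 16 basement membrane genes (collagen IV and the laminins) and 27 other collagens.

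RNA of cortical thymic epithelial cells (cTECs), which support early thymocyte development, was hybridised to 2 Affymetrix arrays. One array held cTECs from 7 Aire transgenic mice (Tg), in which Aire, the transcriptional regulator of medullary thymic epithelium, is placed by a semi-knockin under the promoter of the thymoproteasome subunit β5t (Psmb11). The other held cTECs from 5 control mice (non-Tg), and the animals of each group were read here as 1 pool. Both groups were NOD mice, a diabetes-prone strain, and both were labelled day 7. With 1 array per genotype no difference has a replicate check and no p-value was computed. Calls rest on size alone: a gene had to reach the median of all probe sets on 1 or both arrays (the filter, 5.43 for Tg and 5.45 for non-Tg) and to be at least 2-fold apart, with 1.5-fold as a second rule.

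Aire itself had log2 levels of 7.33 on the Tg array and 6.06 on the non-Tg array, a log2 ratio of 1.28. Psmb11 had 10.52 and 10.15. Of 12 cTEC markers, Psmb11 among them, 12 passed the filter, where 57.3% of all genes did. Thymocyte markers passed in 10 of 11 and medullary epithelial markers in 9 of 11, so passing does not settle the cell type. The cTEC marker ratios were above 0 in 12 of 12, with a median of 0.12. Among all genes past the filter, 50.6% were above 0. Probe sets of the same gene offered a scale for single ratios. The 658 genes with 2 or more probe sets past the filter gave an SD of 0.302 for the log2 ratio of 1 probe set. This SD contains no variation between animals or amplifications.

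Fibrillar collagens such as collagen I build the tensile fibres of connective tissue and are mostly products of fibroblasts. Basement membranes are thin sheets beneath epithelia and around vessels, in which a laminin network is joined to a collagen IV network. Each laminin is a trimer of 1 alpha, 1 beta and 1 gamma chain, so the chains a cell expresses set which laminins it can assemble. In the thymus, epithelial cells lie on basement membranes at the capsule, the septa and the vessels, and laminins have been studied as ligands for thymocytes.

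No collagen or laminin gene reached either fold rule. Of the 54 genes, 42 passed the filter, 0 were 2-fold higher and 0 were 2-fold lower in Tg, where among all 11422 genes past the filter 0.797% were 2-fold higher and 0.376% were 2-fold lower. At 1.5-fold the counts were again 0 and 0, against 4.74% and 3.13% of all genes past the filter. The widest member ratio, that of Lama4, was 1.45-fold. Among the laminins, the 3 chains of 1 known laminin had the highest ratios of all members, and 2 chains of an epithelial laminin had ratios below 0.

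**Figure D1:**
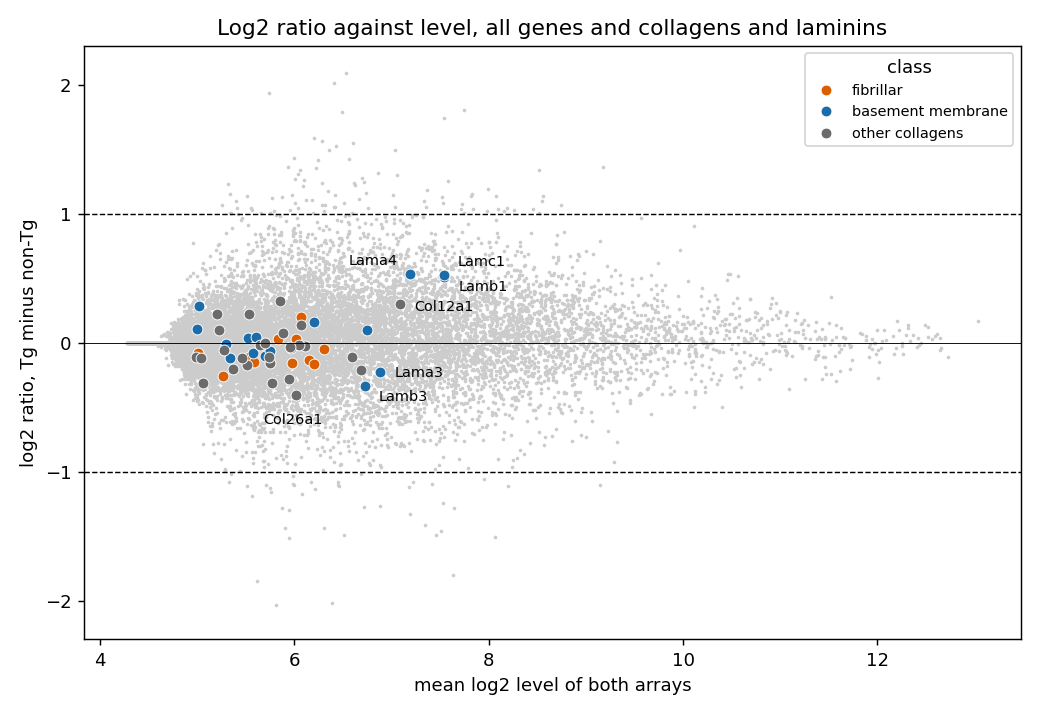
Each point is a gene, with the mean log2 level of both arrays on the x axis and the log2 ratio of Tg minus non-Tg on the y axis, grey for all other genes and coloured for the 54 collagens and laminins by class, and dashed lines at 2-fold. All coloured points lie between -0.40 (Col26a1) and 0.54 (Lama4), and Lama4, Lamb1 and Lamc1 are the uppermost of them.

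Among the laminin alpha chains, Lama4, a chain found in vessels and mesenchyme, had a level of 7.45 in Tg against 6.92 in non-Tg, a log2 ratio of 0.54. Lamb1, a widely expressed beta chain, had 7.79 in Tg against 7.28 in non-Tg, a log2 ratio of 0.51. Lamc1, the gamma chain of most laminins, had 7.80 and 7.27, a log2 ratio of 0.52. These chains form a known laminin together, and their ratios ran from 0.51 to 0.54. Each exceeded the SD of 0.302 between probe sets and the SD of the ratios of the 500 genes nearest in mean level, which was 0.357 for Lama4, 0.383 for Lamb1 and 0.385 for Lamc1. These chains were singled out as the highest ratios of the 54 members, and the share of genes beyond such an SD was not counted. In proportion to the SD of their level neighbours, Lama2 (0.28, SD 0.157) and Col8a1 (-0.31, SD 0.167), both under the filter, lay further out. The other alpha chains had log2 ratios of 0.28 (Lama2), -0.08 (Lama5), -0.12 (Lama1) and -0.23 (Lama3). Lama4, Lamb1 and Lamc1 were each read by 1 probe set, so none of their ratios has a second reading. Vessels are another known source of Lama4. The 12 endothelial markers had log2 ratios from -1.08 to 0.48 and a median of 0.00, and the 10 pericyte and smooth muscle markers had ratios from -0.15 to 0.86 and a median of 0.00 to 2 decimals. Their part in the laminin values was not tested.

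Lama3 and Lamb3 encode chains of the laminin that anchors hemidesmosomes in stratified epithelia. They had the opposite sign. Lama3 had 6.77 in Tg against 7.00 in non-Tg, a log2 ratio of -0.23. Lamb3 had 6.55 and 6.89, a log2 ratio of -0.34. The ratio of Lama3 was within the SD between probe sets and that of Lamb3 slightly beyond it, and both were within the SD of their level neighbours (0.353 and 0.369).

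The other laminin chains lay close to the median of the arrays. Lama5, the alpha chain of most adult epithelial basement membranes, had 5.53 in Tg against 5.61 in non-Tg. Lamb2, a beta chain prominent at the neuromuscular junction and in the glomerulus, had 5.64 and 5.75, and Lamc3 had 5.72 and 5.79. Their log2 ratios ran from -0.10 to -0.07. Lama1, known from embryonic basement membranes, and Lama2, the alpha chain around muscle fibres, did not pass the filter on either array. Lama1 had 5.28 and 5.39, and Lama2 had 5.16 and 4.88. Over all 10 laminins the median log2 ratio was -0.08, with 4 ratios above 0 and 6 below, so the median does not show the chains at either end.

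**Figure D2:**
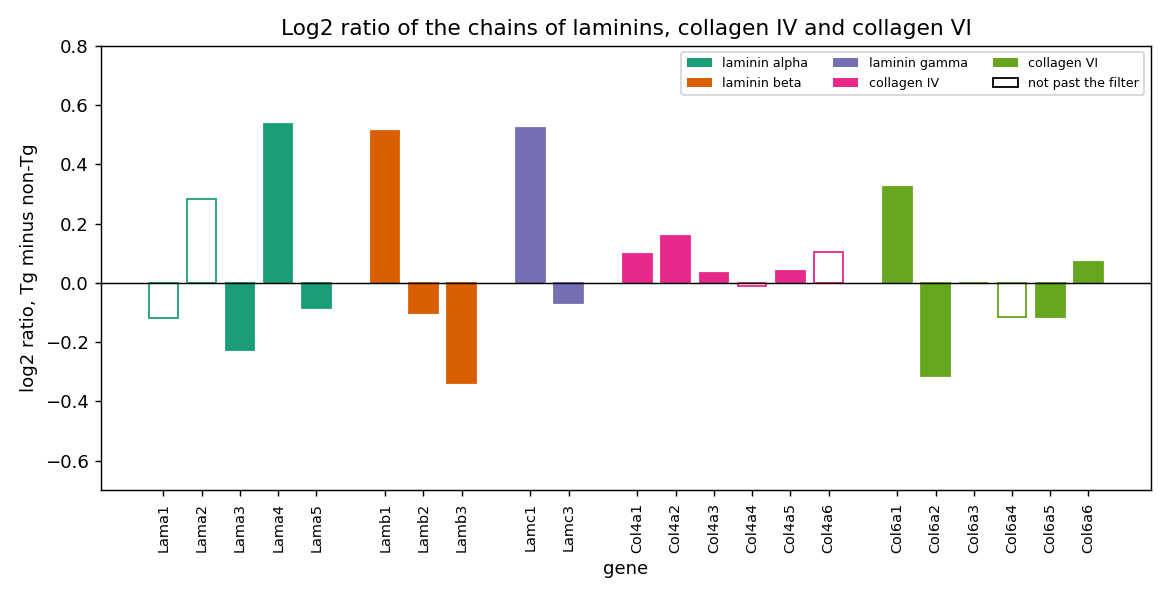
Bars give the log2 ratio of Tg minus non-Tg for each chain of the laminins, collagen IV and collagen VI, coloured by family, with open bars for genes under the filter on both arrays. The bars of Lama4, Lamb1 and Lamc1 stand at 0.51 to 0.54, those of the collagen IV chains between -0.01 and 0.16, and Col6a1 and Col6a2 point in opposite directions.

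Promoter sequence of the beta chain genes at both ends is shown so that the regions before their starts can be compared. RefSeq sequences (GRCm38.p6) were on hand for 40 of the 54 genes, among them Lamb1 and Lamb3. The stretch for Lamb1 is chr12:31265043-31265145 on the plus strand, 103 bases that end before the gene's most upstream annotated start. That for Lamb3 is chr1:193301744-193301993 on the plus strand, 250 bases before a start that lies within the span of a longer annotated transcript. Capitals mark the E-box letters CANNTG, the GC box letters GGGCGG or CCGCCC, and the AP-1 letters TGANTCA, which were searched on both strands.
Lamb1: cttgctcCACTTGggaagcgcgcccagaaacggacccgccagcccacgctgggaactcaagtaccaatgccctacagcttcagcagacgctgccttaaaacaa
Lamb3: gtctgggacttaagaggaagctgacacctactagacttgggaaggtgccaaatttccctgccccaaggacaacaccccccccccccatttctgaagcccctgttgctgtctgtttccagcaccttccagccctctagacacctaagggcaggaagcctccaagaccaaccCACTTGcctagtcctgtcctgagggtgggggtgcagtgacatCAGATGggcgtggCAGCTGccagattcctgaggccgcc
The Lamb1 stretch of 103 bases held 1 E-box and the Lamb3 stretch of 250 bases held 3. The lengths differ, so these counts cannot be compared directly. Neither stretch held a GC box or an AP-1 match. No 2 of these motifs overlapped in them. Their GC content was 58.3% and 58.8%, where the median over the 250 bases before the start in all 32851 RefSeq promoter windows was 52.4%. E-box letters occurred in 66.2% of all windows, GC boxes in 32.7% and AP-1 letters in 6.75%. Over the members, GC boxes were in 24 of 44 windows (54.5%), E-box letters in 25 of 44 (56.8%) and AP-1 letters in 1. A match is a description of the letters only.

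Collagen IV, the network collagen of all basement membranes, had log2 ratios from -0.01 to 0.16. Col4a1 had 6.80 in Tg against 6.70 in non-Tg, and Col4a2 had 6.28 and 6.12. These chains form the trimer common to nearly all basement membranes, and their genes lie head to head on chromosome 8. Their log2 ratios were 0.10 and 0.16, both within the SD between probe sets. The chains of specialised basement membranes, such as that of the glomerulus, were nearer to the array medians. Col4a3 had 5.54 and 5.50, and its head-to-head neighbour Col4a4 had 5.29 and 5.30, under the filter. Col4a5 had 5.62 and 5.58, and its X-linked neighbour Col4a6 had 5.05 and 4.94, also under the filter. Of the 6 collagen IV genes, 5 had a ratio above 0, with a median of 0.07.

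Fibrillar collagens had levels from 4.96 to 6.28 in Tg, and their ratios were more often below 0 than above. Of 11 genes, 9 passed the filter, 3 ratios lay above 0 and 8 below, and the median was -0.11. Over all genes, 39.0% of ratios lay above 0, 42.2% below, and the rest at 0. Col1a1, a chain of the main fibrillar collagen, had 6.28 in Tg against 6.32 in non-Tg. Its partner Col1a2 had 6.17 and 5.97, a log2 ratio of 0.20, the highest of the class. Both chains build 1 trimer, and their ratios differed in sign while each stayed within the SD between probe sets. Col3a1, which forms fibres in distensible tissue, had 5.84 and 5.81.

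The regulators of fibril diameter, collagens V and XI, had ratios below 0 for each measured chain. Col5a1 had 5.90 in Tg against 6.06 in non-Tg, and Col5a3 had 5.51 and 5.65. Col11a1 had 5.47 and 5.58, and Col11a2 had 6.08 and 6.22. Across these 4 chains the log2 ratio ran from -0.16 to -0.11, and Col5a2, with 4.96 and 5.04, was under the filter. Of the remaining fibrillar genes, the cartilage collagen gene Col2a1 had 6.03 and 6.004, and Col27a1 had 6.12 and 6.28. Col24a1 was under the filter, with 5.14 and 5.40. These differences were all within 0.302, a scale taken from probe sets past the filter and so not from genes as dim as Col24a1.

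**Figure D3:**
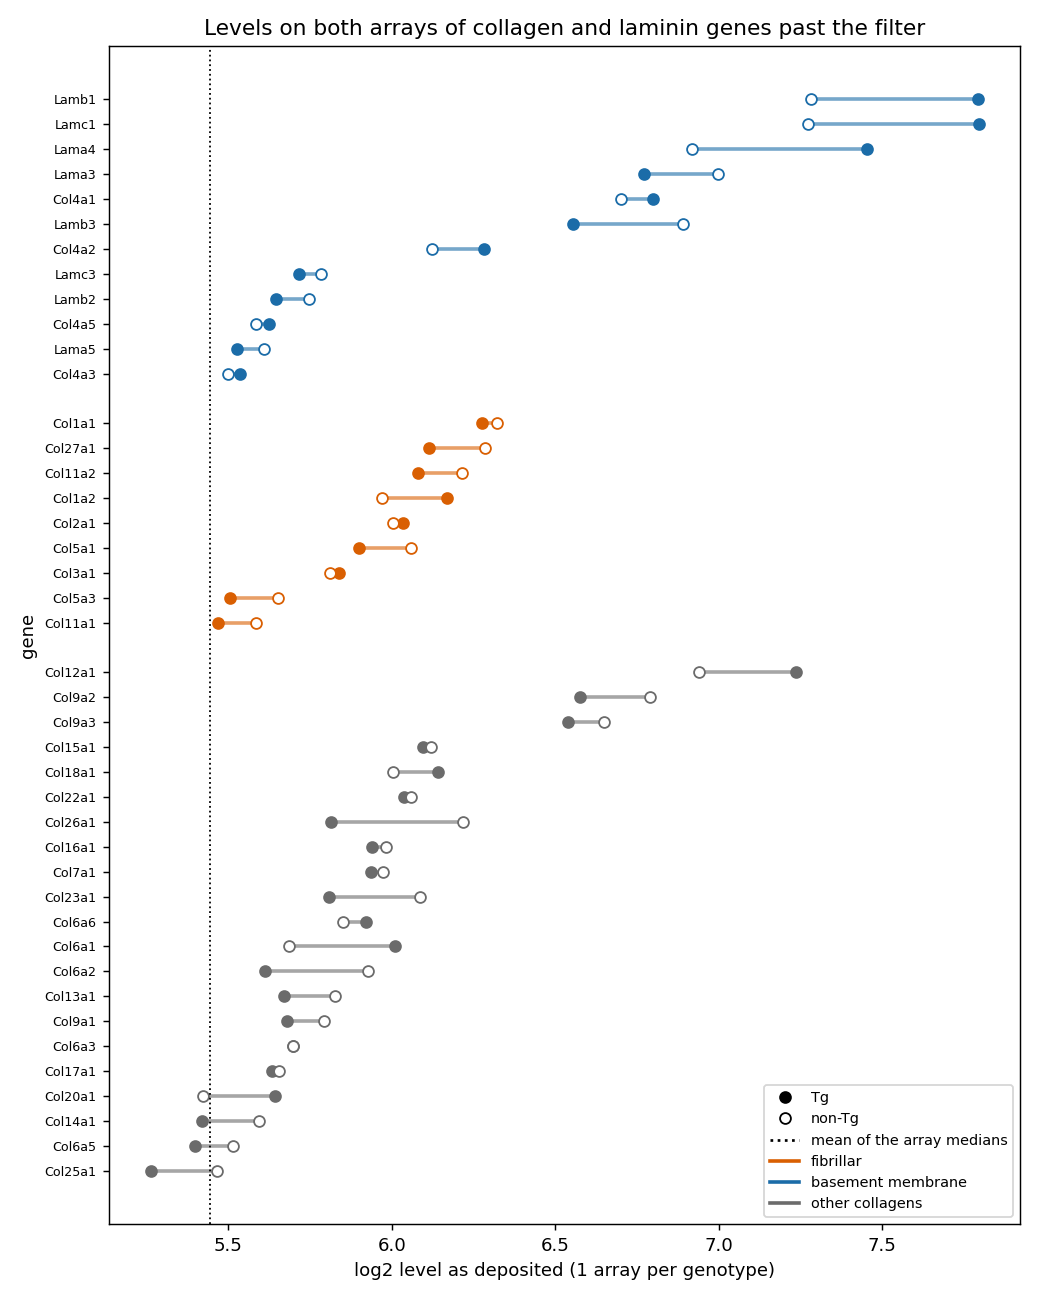
The 42 genes past the filter are shown by class, with the log2 level on the x axis, filled circles for the Tg array and open circles for the non-Tg array, and a dotted line at the mean of the array medians. Most fibrillar and other collagens lie within 1 log2 unit of the line, and the basement membrane genes reach 7.80 (Lamc1 in Tg).

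The 27 other collagens held the widest negative ratio. Col26a1, a little-studied collagen described in testis and ovary, had 5.81 in Tg against 6.22 in non-Tg, a log2 ratio of -0.40. Collagen XII, which lies on the surface of collagen I fibrils, had a level of 7.24 for Col12a1 in Tg against 6.94 in non-Tg, a log2 ratio of 0.30. Genes of like level had ratios with an SD of 0.349 around Col26a1 and 0.377 around Col12a1.

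Of the 9 measured fibril-associated collagens, 2 had a ratio above 0 and 7 below. The chains of collagen IX, a cartilage collagen, shared their sign. Col9a1 had 5.68 in Tg against 5.79 in non-Tg, Col9a2 had 6.58 and 6.79, and Col9a3 had 6.54 and 6.65. Their ratios ran from -0.21 to -0.11. Col20a1 had 5.64 and 5.42, while Col14a1, a partner of mature collagen I fibrils, had 5.42 and 5.59. Col16a1 had 5.94 and 5.98, and Col22a1, a collagen of tissue junctions, had 6.04 and 6.06. Both pairs of values were nearly equal.

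Collagen VI forms beaded filaments around cells and is found in most connective tissue. Its chains did not share a sign. Col6a1 had 6.01 in Tg against 5.69 in non-Tg, a log2 ratio of 0.32. Col6a2, which lies near it on chromosome 10 and is its partner in the same trimer, had 5.61 and 5.93, a log2 ratio of -0.32. Col6a3, the usual partner of both, had 5.70 on both arrays. Its values were equal to the last digit, as were those of 809 of the 28856 probe sets. The ratios of Col6a1 and Col6a2 were each just beyond the SD of 0.302 between probe sets and close to the SD of their level neighbours (0.312 and 0.322).

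The sequences before the starts of this pair are shown because the genes lie near each other and had ratios of opposite sign. Both are on the minus strand and in GRCm38.p6, Col6a1 at chr10:76726045-76726294 and Col6a2 at chr10:76623631-76623880, each 250 bases before the gene's most upstream annotated start. Capitals mark the same letters as above.
Col6a1: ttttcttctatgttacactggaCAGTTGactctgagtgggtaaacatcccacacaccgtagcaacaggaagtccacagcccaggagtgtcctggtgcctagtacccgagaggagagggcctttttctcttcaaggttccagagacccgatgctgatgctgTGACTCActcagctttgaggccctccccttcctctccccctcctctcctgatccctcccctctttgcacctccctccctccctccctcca
Col6a2: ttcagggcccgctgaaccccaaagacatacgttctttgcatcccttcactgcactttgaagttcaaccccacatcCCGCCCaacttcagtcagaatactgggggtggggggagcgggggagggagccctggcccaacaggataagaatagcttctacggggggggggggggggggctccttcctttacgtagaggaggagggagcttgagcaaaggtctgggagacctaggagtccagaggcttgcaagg
Col6a1 held 1 AP-1 match and 1 E-box and no GC box, and it was the member with the AP-1 letters. Col6a2 held 1 GC box and neither of the others. Their GC content was 56.0% and 59.2%.

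Col6a5 and Col6a6 were the members read by more than 1 probe set. The brighter probe set of Col6a6 had 5.92 in Tg against 5.85 in non-Tg, and the dimmer one 4.86 and 4.95. Their ratios of 0.07 and -0.09 differed in sign. Col6a5 had 5.40 and 5.51 on the brighter probe set and 4.97 and 4.99 on the dimmer one, both below 0. Col6a4 was under the filter, with 4.98 and 5.10.

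Transmembrane collagens had ratios below 0 in 4 of 4 genes. Col23a1 had 5.81 in Tg against 6.09 in non-Tg, a log2 ratio of -0.28, and Col13a1 had 5.67 and 5.83. Col25a1, known from neurons, had 5.26 and 5.47, which passed the filter on the non-Tg array alone. Col17a1, the hemidesmosomal collagen of basal keratinocytes, had 5.64 and 5.66, a ratio of -0.02, where Lama3 and Lamb3, of the same structure, had -0.23 and -0.34.

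Collagens of the wider basement membrane zone had log2 ratios from -0.04 (Col7a1) to 0.14 (Col18a1). Col7a1, which forms the anchoring fibrils of skin, had 5.94 in Tg against 5.97 in non-Tg. Col15a1 had 6.09 and 6.12, and Col18a1, the source of endostatin, had 6.14 and 6.003. Adding these genes and Col17a1 to the basement membrane class gave a median log2 ratio of 0.01 in place of 0.04.

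Genes under the filter on both arrays numbered 12. They were Lama1, Lama2, Col4a4, Col4a6, Col5a2, Col24a1, Col6a4, Col19a1, Col28a1, Col8a1, Col8a2 and Col10a1. Their levels lay between 4.88 (Lama2 in non-Tg) and 5.40 (Col24a1 in non-Tg), and their log2 ratios between -0.31 (Col8a1) and 0.28 (Lama2). All 3 short-chain collagens, among them Col10a1 of hypertrophic cartilage, were in this set. Lama2 and Col8a1 had the widest ratios of this set, beyond the SD of their level neighbours (0.157 and 0.167). Col24a1 (-0.26) and Col28a1 (0.22) were also beyond theirs (0.224 and 0.200). Ratios of dim probe sets had a smaller spread than those of brighter ones.

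By class, the median level of fibrillar genes was 5.90 in Tg against 5.97 in non-Tg, that of basement membrane genes 5.68 and 5.77, and that of other collagens 5.68 and 5.79. The median over all genes was 5.55 and 5.57. Different probe sets differ in brightness for the same amount of RNA, so neither these medians nor the highest values rank the classes by transcript amount. The share past the filter was 9 of 11, 12 of 16 and 21 of 27, 77.8% in all, where 57.3% of all genes passed. The highest Tg level was 6.28 in the fibrillar class, 7.80 in the basement membrane class and 7.24 among other collagens.

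In log2 ratio the class medians over all members were -0.11 for fibrillar, 0.04 for basement membrane and -0.06 for other collagens, against 0.00 for all genes. Fibrillar ratios ran from -0.26 to 0.20, basement membrane ratios from -0.34 to 0.54 and those of other collagens from -0.40 to 0.32, so the classes overlapped. Ratios lay below 0 in 8 of 11 fibrillar, 7 of 16 basement membrane and 19 of 27 other genes. Of all 54, 34 were below 0 (63.0%), where 42.2% of all genes were below 0 and 3738 of the 19938 at 0. Among genes past the filter, 48.4% of all genes and 26 of the 42 members were below 0. No test of a difference between classes can be made from 1 pair of arrays.

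Genes that work with these proteins were described from 5 lists. Of 18 measured partners in the basement membrane 15 passed the filter and 0 were called at 2-fold. The median log2 ratio was -0.01 over all 18 and -0.02 over the 15. Sparc, a collagen-binding matricellular protein, had 10.39 in Tg against 10.31 in non-Tg. Npnt, an integrin ligand of basement membranes, had 7.01 and 7.38. The linkers between the laminin and collagen IV networks were near the array medians, with 5.97 and 5.91 for Nid1 and 6.08 and 6.12 for Hspg2, which encodes perlecan. Frem2, part of a complex that joins epithelium and mesenchyme in the embryo, had 6.51 and 5.82. It was the 1 gene of the 15 beyond 1.5-fold, where 4.74% of all genes past the filter were that much higher. Nid1, Hspg2 and Frem2 were chosen for mention after their values were seen.

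For collagen synthesis and processing, 22 of 27 measured genes passed and 0 were called at 2-fold. Their median was -0.04 over all 27 and 0.05 over the 22 that passed, so it differed in sign. Ppib, a prolyl isomerase of the endoplasmic reticulum, had 9.10 in Tg against 8.92 in non-Tg. P4hb, a subunit of prolyl hydroxylase, had 8.51 and 8.32. Past 1.5-fold were 2 of the 22, both higher in Tg, where 4.74% of all genes past the filter were that much higher. Both were named after their values were seen. Crtap, a subunit of the prolyl 3-hydroxylation complex, had 6.56 and 5.72, and Pcolce2, an enhancer of procollagen cleavage, had 6.09 and 5.29. The other subunits of the Crtap complex had smaller log2 ratios, 0.15 for P3h1, also chosen after its value was seen, and 0.18 for Ppib.

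Among 16 measured receptor genes 10 passed, with 0 beyond 1.5-fold. Of all genes past the filter, 4.74% were that much higher and 3.13% that much lower. The median of the receptor genes was 0.05 over all and 0.15 over those that passed. Itgb1, the beta subunit of most collagen and laminin receptors, had 9.68 in Tg against 9.46 in non-Tg. Itga6, a laminin-binding alpha subunit, had 8.79 and 8.56. Genes of matrix degradation had 7 of 15 past the filter, 0 beyond 1.5-fold, and a median of 0.03 over all and 0.09 over those that passed. The gelatinase gene Mmp2 had 8.49 and 8.25, and the inhibitor gene Timp3 had 8.05 and 7.99. Other interstitial matrix genes had 9 of 15 past the filter, 0 beyond 1.5-fold, and a median of 0.06 over all and 0.20 over those that passed. The tenascin gene Tnc had 10.21 and 10.19, and fibronectin (Fn1) had 9.26 and 8.95.

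**Figure D4:**
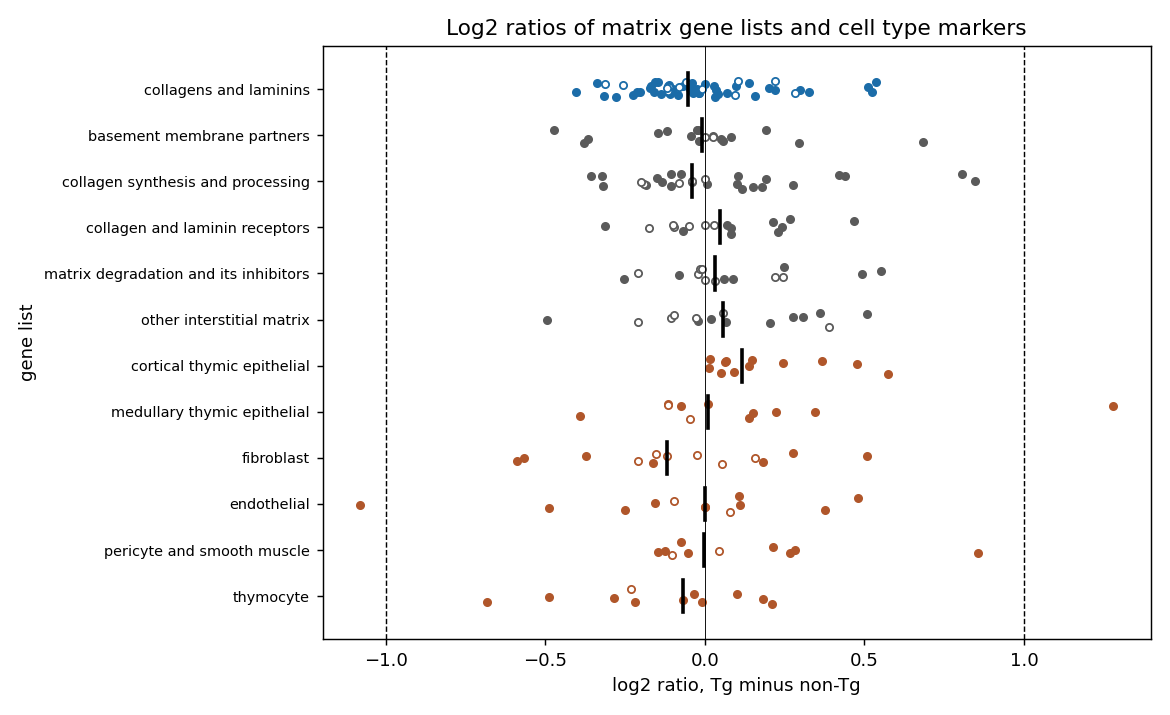
Each circle is a gene, placed by its log2 ratio of Tg minus non-Tg, filled if past the filter, with a black bar at the list's median and dashed lines at 2-fold. The collagens and laminins (blue) and the matrix lists (grey) stay within 2-fold, and among the cell type markers (brown) Aire lies above it and Ramp2 below it.

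Laminins and collagens are also made by cells other than cTECs, and in RNA of pooled cells more cells of a type cannot be told apart from more RNA per cell. Vessel wall markers were read in the same way. Passing the filter, which 57.3% of all genes did, does not show that a cell type was present. The endothelial genes Tie1 (5.36 in Tg against 5.28 in non-Tg) and Esam (5.13 and 5.23) were under the filter. Of 12 endothelial markers 10 passed the filter, with a median log2 ratio of 0.00 and a range from -1.08 (Ramp2) to 0.48 (Pecam1). The log2 of their summed linear levels was 9.90 in Tg against 9.98 in non-Tg. Of 10 pericyte and smooth muscle markers 8 passed, with a median of 0.00 to 2 decimals and a range from -0.15 to 0.86 (Acta2), with a summed level of 10.15 in Tg against 9.98 in non-Tg.

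Fibroblast markers had 7 of 13 measured genes past the filter, ratios from -0.59 (Dpt) to 0.51 (Postn) and a median of -0.12, with a summed level of 10.18 in Tg against 10.09 in non-Tg. The defining fibroblast receptor genes Pdgfra and Pdgfrb were under the filter, with 5.25 and 5.37 for Pdgfra and 5.29 and 5.24 for Pdgfrb. Other markers of the list were brighter: its levels ran from 4.73 to 8.09 in Tg and from 4.88 to 7.72 in non-Tg. Dcn, Lum and Postn stand in the interstitial matrix list too. The thymocyte list had 10 of 11 measured genes past the filter, a median of -0.07, and a summed level of 12.40 in Tg against 12.58 in non-Tg. Medullary epithelial markers had 9 of 11 past the filter, a median of 0.01 and a summed level of 11.66 in Tg against 11.44 in non-Tg, Aire included. The summed cTEC level was 14.56 and 14.47. The part of these cells in the laminin and collagen values was not tested.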

How the data were processed

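RNA of 1 pool of cells per genotype was amplified to cDNA, biotin-labelled and hybridised, per the labels' protocols. The deposited table gives log2 levels of 28856 probe sets. That they are log2 was read from their span (Tg: 4.22 to 13.7). The authors' background correction and normalization: not given in the sources used here. Precision is limited by the number of arrays.

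Genes were named by GEO's platform annotation. Probe sets with 1 symbol numbered 21789, those with several 1621 and those with none 5446. All 54 members matched the RefSeq table (GRCm38.p6) by gene ID and symbol. Values under the 25th percentile of both arrays (4.80) were raised to it for log2 ratios, which touched 0 members. Every member past the filter was named, and of each matrix list the genes beyond 2-fold or the 2 of highest mean level. Marker lists were given by counts, ranges and defining genes near the floor. Members and lists were chosen with earlier results of these data known. Python 3.11.15, numpy 2.4.6, pandas 2.3.3 and matplotlib 3.10.9 were used, and the calls were tested on simulated data. Alternatives were the floor, the filter, the probe set rule, the scaling, the fold and the basement membrane class.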

Additional observations from a re-analysis of the deposited data

How the results depend on the processing

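No collagen or laminin gene reached 2-fold under any alternative run (floor, filter, probe set rule, scaling, or a 1.5-fold rule), and no matrix list gained or lost a gene at 2-fold. Over 5 alternatives of floor, probe set rule and scaling, 38 of 42 members past the filter kept their sign, and the largest move was 0.08. Those of Col17a1, Col22a1, Col6a3 and Col6a6, all near 0, did not. The floor settings changed no ratio of these members, and the probe set rule could change only Col6a5 and Col6a6. For the other members only the scalings could move a ratio, so the kept signs say little more than that. The log2 ratio ran from 0.49 to 0.56 for Lama4, from 0.46 to 0.53 for Lamb1, from 0.47 to 0.55 for Lamc1, from -0.27 to -0.20 for Lama3 and from -0.37 to -0.32 for Lamb3. Over these and the wider basement membrane class, medians over all members of a class ran from -0.11 to -0.09 (fibrillar), 0.00 to 0.06 (basement membrane) and -0.06 to -0.04 (other collagens). Stricter filters left fewer genes by construction: at the 60th percentile 7 basement membrane genes passed in place of 12, and at the 75th percentile 6 of them, 0 fibrillar genes (so no median) and 3 other collagens. The median over the genes that passed moved with them, from 0.04 to 0.16 and 0.30 for basement membrane, from -0.11 to -0.05 for fibrillar at the 60th percentile, and from -0.04 to -0.04 and -0.11 for other collagens. Over all genes that passed, the median also rose, from 0.006 to 0.02 and 0.04 at the same filters. Values bounded below limit what dim members can show. No paired analysis was possible because each group has 1 array.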
